A study of Mus musculus with 8 samples.

Results

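Clustered histone genes are the genes that the array design names Hist1h, Hist2h, Hist3h and Hist4h, after the chromosomal clusters they sit in. The members were found by gene name, which gave 49 genes with 55 probes among 34797 gene names and 55681 probes. Of these, 6 encode linker histone H1 and 43 encode core histones, with 14 H2A, 12 H2B, 8 H3 and 9 H4 genes. The linker genes were set against the core genes because earlier results of these arrays had shown a linker gene to be raised, so the levels of the members are given as a description and carry no test. The arrays came from 4 lines of A20, an established mouse B lymphoma line that resembles a mature B cell. Each line was measured on 2 arrays. The control lines were untransfected A20 and a stable transfectant with membrane IgM. The other lines were stable transfectants with IgE, clones 18 and 41, so each IgE line stands for 1 clone. The growth medium of every line was RPMI1640 with serum (10%) and beta-mercaptoethanol (50 µM), at a density of 500000 cells/mL. Each array took 1 µg of RNA and the dye Cy3. Whether both arrays of a line stem from different cultures is not in the labels, so every error and p-value measures a spread between arrays that may be technical.

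Core histones H2A, H2B, H3 and H4 form the spool around which DNA is wound, and linker histone H1 binds the DNA where it enters and leaves that spool. Cells make most of them in S phase from the clustered genes, whose mRNAs end in a conserved stem-loop in place of a poly(A) tail. Many of these genes can also give longer, polyadenylated transcripts when cells stop dividing or differentiate. Genes outside the clusters, such as H1f0, H1fx, H2afz and H3f3b, have poly(A) tails and are expressed outside S phase. Lymphocytes carry several H1 subtypes at once, and loss of a single subtype is usually met by the others.

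The promoters of the 6 linker genes are shown here because these genes are set against the core genes below. RefSeq promoters of build GRCm38.p6, from 250 bases before to 50 bases after the start, were found for 42 of the 49 genes through the 47 that matched a current symbol. Letters were searched on both strands, and none of the motifs contains another. The H1 box was searched as AAACACA. The CCAAT box was searched by the letters of its name. The TATA box was searched as TATAAA. The octamer was searched as ATTTGCAT. The stretches of 110 bases below lie just before the start site, and capitals mark the first 3 motifs on either strand.
Hist1h1a (H1f1), chr13:23763543-23763652, plus strand: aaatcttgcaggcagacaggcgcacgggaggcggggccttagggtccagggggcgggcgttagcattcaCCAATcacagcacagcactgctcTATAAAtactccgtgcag
Hist1h1b (H1f5), chr13:21780641-21780750, minus strand: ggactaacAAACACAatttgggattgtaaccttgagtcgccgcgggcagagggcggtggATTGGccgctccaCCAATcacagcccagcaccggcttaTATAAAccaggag
Hist1h1c (H1f2), chr13:23738682-23738791, plus strand: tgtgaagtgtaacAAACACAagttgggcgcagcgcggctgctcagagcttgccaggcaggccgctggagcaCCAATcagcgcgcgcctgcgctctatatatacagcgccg
Hist1h1d (H1f3), chr13:23554907-23555016, plus strand: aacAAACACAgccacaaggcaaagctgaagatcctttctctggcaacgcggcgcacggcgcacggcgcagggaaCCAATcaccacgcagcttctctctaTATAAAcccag
Hist1h1e (H1f4), chr13:23622574-23622683, minus strand: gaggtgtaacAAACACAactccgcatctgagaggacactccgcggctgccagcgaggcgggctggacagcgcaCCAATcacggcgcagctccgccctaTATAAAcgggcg
Hist1h1t (H1f6), chr13:23695686-23695795, plus strand: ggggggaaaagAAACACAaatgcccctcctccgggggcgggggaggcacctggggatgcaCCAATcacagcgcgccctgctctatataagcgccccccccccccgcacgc
The H1 box lay between 112 and 122 bases before the start in 5 of the 6 linker promoters. The letters were not in the 300 bases of Hist1h1a, the linker gene with the highest difference between the lines. No match says only that these letters are absent from this window. The H1 box was present in 7.14% of all 27025 promoters, in 2 of 14 H2A promoters, in 2 of 9 H2B promoters and in none of the 5 H3 and 8 H4 promoters. The CCAAT box was in all 6 linker, 14 H2A, 9 H2B and 5 H3 promoters, in 2 of 8 H4 promoters and in 37.92% of all promoters. The TATA box was in 4 of 6 linker promoters and in 14.16% of all. The octamer was in 7 of 14 H2A and 5 of 9 H2B promoters, in no linker, H3 or H4 promoter, and in 1.75% of all. These are matches of letters, not sites shown to be bound.

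The second set of sequences shows where the probes sit. A stem of 6 bases around a loop of 4 bases, the histone mRNA stem-loop, was found complete in 6 of the 55 histone probes (10.9%) and in 16 of all 55681 probes (0.029%). The stretches of 30 bases below hold it in capitals, on the coding strand.
Hist1h3a: aattaaccaaaGGCTCTTTTCAGAGCCaca
Hist1h3g: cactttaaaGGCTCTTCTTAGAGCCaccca
Hist1h3i: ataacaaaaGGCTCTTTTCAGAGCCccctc
Hist1h4m: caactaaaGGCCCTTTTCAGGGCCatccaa
Hist2h2aa1: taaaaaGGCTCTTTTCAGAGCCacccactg
Hist2h2bb: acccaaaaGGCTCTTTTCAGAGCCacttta
In 5 of these the stem-loop ended 3 to 6 bases before the end of the probe, where the mature S-phase mRNA also ends. In Hist2h2aa1 another 38 bases of the probe followed it. Further probes start beyond that point and read only longer transcripts. Place in the transcript is used below to sort the probes, a sorting that was made after their values had been seen.

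The arrays gave a level in every sample for 28 of the 49 genes, and the limit was more often brightness than dimness. Levels are log2 processed intensity minus the 75th percentile of the array, so 0 stands for a spot at that percentile. Spots well above background made up 49.7% to 53.1% of 7 arrays and 58.9% of IgM replicate 1. Of the 49 genes, 47 passed the filter on dim probes, which asks for a signal well above background on 2 of 2 arrays in some line, and were tested among 19973 genes. Hist1h1d and the pseudogene Hist3h2bb-ps did not pass. Another 13 genes, with 14 probes (25.5% of the histone probes), were saturated on all 8 arrays, as were 620 of all genes tested (3.1%). That left 28 genes, 2 linker and 26 core, that were well above background and unsaturated on each of the 8 arrays. They are called measured genes here.

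Saturation was heaviest among the H2A genes, where 8 of 14 gave nothing but a ceiling. The probes below, of 60 bases each and all saturated, show how alike these coding ends are. Capitals mark the bases that differ from Hist1h2ak.
Hist1h2ak: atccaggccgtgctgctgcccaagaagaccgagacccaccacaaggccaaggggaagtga
Hist1h2af: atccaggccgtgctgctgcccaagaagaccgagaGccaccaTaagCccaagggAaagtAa
Hist2h2aa2: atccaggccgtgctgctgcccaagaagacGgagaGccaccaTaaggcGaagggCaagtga
Hist1h2an: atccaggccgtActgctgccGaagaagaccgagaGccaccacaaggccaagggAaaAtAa
Hist1h2af and Hist2h2aa2 differ from Hist1h2ak at 5 bases and Hist1h2an at 6, so a transcript of one gene can also bind the probe of another. In all, 9 histone probes were at least 90% identical to a probe of another member, and 7 of these were saturated. The 14 saturated probes read 57562 to 78125 intensity units. Their log2 difference between IgE and control lines was -0.10 to 0.09 as read and 0.23 to 0.43 after scaling. The shift came with the 75th percentile, which was 474 to 524 on the IgE arrays and 584 to 664 on the control arrays, a mean difference of 0.33 on the log2 scale. All 14 had every IgE array above every control array after scaling, but a saturated spot gives only a ceiling.

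Linker histone genes differed among themselves. The comparison asks what differs in cells that carry membrane IgE, with the mean of both IgE clones set against the mean of the untransfected and IgM lines. Hist1h1a (H1f1), which encodes subtype H1.1, was far higher in both IgE clones, while Hist1h1c (H1f2), which encodes subtype H1.2, leaned lower. Hist1h1b (H1f5), which encodes subtype H1.5, was lower in the untransfected line than in the other 3. In cell lines analysed in bulk, fewer cells with a transcript and less of it per cell cannot be told apart.

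Hist1h1a read 0.93 and -0.03 in untransfected cells, -0.41 and 0.06 in IgM cells, 3.45 and 3.55 in clone 18, and 3.31 and 2.95 in clone 41. The 4 IgE arrays lay far above the 4 control arrays, with means of 3.31 ± 0.27 and 0.14 ± 0.57 (SD, n = 4 each). The difference was 3.18 ± 0.24 on the log2 scale (SE of the limma fit), or 9.04-fold, and none of the 8 spots was saturated. Against untransfected cells it was 3.05 in clone 18 and 2.68 in clone 41, and against IgM cells 3.67 and 3.30. The control lines differed by -0.62 (IgM minus untransfected) and the clones by -0.37 (clone 41 minus clone 18), both within the spread of single arrays of a control line. The probe lies in the coding region of Hist1h1a, on the plus strand of mm9 at chr13:23855888-23855947, and 1 of its reading frames is open.
Hist1h1a probe: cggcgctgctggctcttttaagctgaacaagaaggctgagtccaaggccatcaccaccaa
It was no more than 53.7% identical to any probe of another member. Only probes were compared, and those of the other linker genes start elsewhere in their transcripts. Whether transcripts of other linker genes bind this probe was not tested.

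Hist1h1c read -0.74 and 0.75 in untransfected cells, 0.71 and 0.11 in IgM cells, -0.99 and -0.75 in clone 18, and -1.32 and -0.58 in clone 41. The groups overlapped, because untransfected replicate 1 lay among the IgE arrays. The difference was -1.12 ± 0.36 (SE) and did not pass the call. Without untransfected replicate 1 it was -1.49 and passed both in the pooled comparison and in all 4 pairs of a clone with a control. Its probe starts 1342 bases into the transcript record and so reads only a long transcript of this gene.

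Hist1h1b read 5.49 and 5.42 in untransfected cells, 6.51 and 6.60 in IgM cells, 6.88 and 6.80 in clone 18, and 6.80 and 6.28 in clone 41. The untransfected arrays were the low ones, and 2 of the 8 spots were saturated and give only lower bounds. Hist1h1b was 1.38 higher in clone 18 and 1.08 higher in clone 41 than in untransfected cells, both past the call, while against IgM cells the clones differed by 0.29 and -0.02. Hist1h1e (H1f4) was saturated on all 8 arrays and no difference can be read from it.

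The remaining linker genes were dim. Hist1h1t (H1f6), the testis H1, read -4.78 and -4.47 in untransfected cells, -2.00 and -3.56 in IgM cells, -4.33 and -4.45 in clone 18, and -4.06 and -4.32 in clone 41. It was highest on IgM replicate 1 and was well above background on 7 arrays. Hist1h1d (H1f3) was well above background on untransfected replicate 1 alone, at -1.84. Its other arrays read -5.09 to -6.99, and its probe starts 2886 bases into the record, so the S-phase transcript of Hist1h1d was not read.

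**Figure D1:**
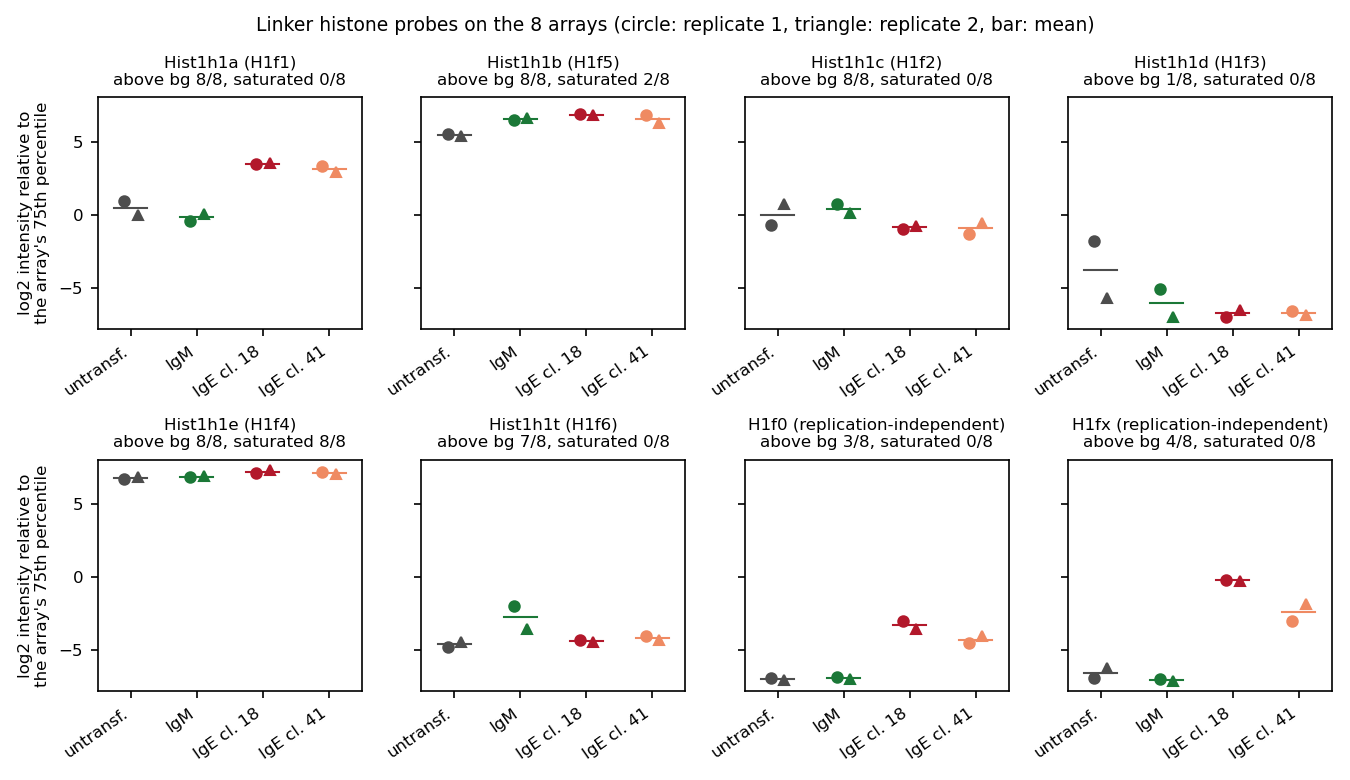
Log2 intensity relative to the 75th percentile of the array (vertical axis) for the 6 clustered linker genes and for the unclustered H1f0 and H1fx, by line (horizontal axis), with 1 point per array and the line mean as a bar; each title gives the arrays well above background (bg) and the saturated arrays of 8. Hist1h1a, H1f0 and H1fx are higher on all 4 IgE arrays, Hist1h1e is at the ceiling throughout, and Hist1h1b is lower in the untransfected line. H1f0 and H1fx were not well above background on any control array and passed the filter on dim probes through the IgE lines alone.

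Outside the clusters, both replication-independent linker genes were also brighter in the IgE clones. H1fx, which encodes H1.10, and H1f0, which encodes H1.0, the linker histone of slowly dividing and differentiated cells, were not well above background on any control array. H1fx was well above background on all 4 IgE arrays, at -0.19 and -0.26 in clone 18 and at -2.99 and -1.83 in clone 41. Against the lowest signal well above background on each control array, it was at least 14.2-fold higher in the IgE clones, a bound of 3.83 on the log2 scale. H1f0 read -3.05 and -3.59 in clone 18 and -4.56 and -4.07 in clone 41, and was well above background on 3 of these 4 arrays. Against the same control levels its mean over all 4 was 2.52-fold higher, or 1.34 on the log2 scale. This is no strict bound, since only 1 of the 2 clone 41 arrays was well above background. Both genes passed the filter on dim probes through the IgE lines alone, so their p-values are not given as support. The bounds hold for the processed intensity alone. The log2 difference of H1fx was 2.38 with normexp correction and 2.76 in the authors' deposited table, both below its bound of 3.83. That of H1f0 was 1.07 with normexp correction and 1.36 in the authors' deposited table. The measured control means were -6.81 for H1fx and -6.96 for H1f0. On the processed intensity H1fx was at least 30.4-fold higher in clone 18 and at least 6.67-fold higher in clone 41 than in the controls. The clones themselves did not pass the call against each other. Neither gene belongs to the clustered set. Each was represented by 1 probe. Both were higher on all 4 IgE arrays than on any control array, as were 14.4% of all genes. Since they were kept through the IgE lines alone, that order is no support.

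Core histone genes moved little as a class between IgE and control lines when both controls were averaged. Of the 26 measured core genes, 15 were higher and 11 lower, 25 were within 2-fold, and the median log2 difference was 0.03. Over all 16350 genes measured on all arrays, 54.0% were higher, 92.9% were within 2-fold, and the median was 0.04. The core median averages unlike controls. Against untransfected cells it was 0.49 in clone 18 and 0.39 in clone 41, but against IgM cells -0.16 and -0.31. In the pooled comparison 3 of the 47 tested histone genes passed the call of an adjusted p under 0.05 and a 2-fold change, against 8.99% of all genes tested, and since the gene set was chosen with this comparison in view nothing is read from that share. They were Hist1h1a and Hist3h2ba, higher, and Hist1h2bp, lower. The background was 3.4% for higher and 5.59% for lower calls. Without scaling between arrays the split over all genes was 383 higher and 1923 lower in place of 679 and 1116, and the median of all genes fell to -0.29. All 4 IgE arrays lay above all 4 control arrays in 18 of 47 histone genes, against 14.4% of all genes, but 13 of the 18 were the saturated genes. The other 5 were Hist1h1a, Hist3h2ba, Hist1h3a, Hist1h4h and Hist1h4j. By the probe that stands for each gene, no histone gene had all IgE arrays below all control arrays, against 10.5% of all genes.

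**Figure D2:**
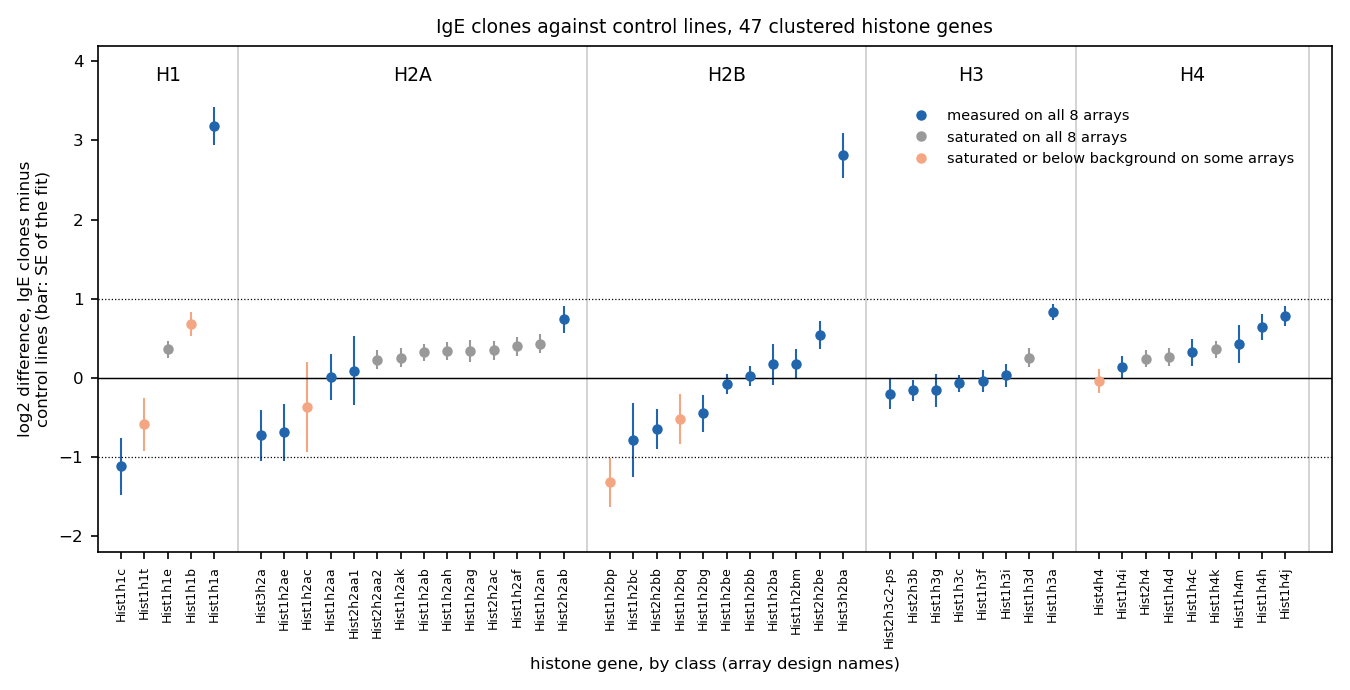
Log2 difference between IgE clones and control lines (vertical axis, with the SE of the fit) for the 47 tested histone genes, ordered within each class (horizontal axis); dotted lines mark 2-fold, grey points are saturated on all arrays, and orange points are saturated or below background on some. Hist1h1a at 3.18 and Hist3h2ba at 2.81 stand above the rest, and 25 of the 26 measured core genes lie within 2-fold.

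Among H2A genes, 5 of 14 could be measured, 3 higher and 2 lower, with a median of 0.01. The highest was Hist2h2ab, in the chromosome 3 cluster, which read -2.35 and -2.43 in untransfected cells, -2.10 and -1.56 in IgM cells, -1.18 and -1.24 in clone 18, and -1.33 and -1.73 in clone 41. Its untransfected arrays were the lowest, and IgM replicate 2 lay among the arrays of clone 41. The difference was 0.74 ± 0.17 (SE), with 1.18 for clone 18 against untransfected cells, which passed the call in that pair. The lowest was Hist3h2a, which read 0.00 and 1.35 in untransfected cells, 1.76 and 1.52 in IgM cells, 0.25 and 0.55 in clone 18, and 0.06 and 0.82 in clone 41. Untransfected replicate 1 was its lowest array. The difference was -0.73 ± 0.32 (SE), and without that array it was -1.07 and passed the call. Hist1h2aa, a testis H2A gene, differed by 0.01 ± 0.29.

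Among H2B genes, 9 of 12 could be measured, 5 higher and 4 lower, with a median of 0.02. Hist3h2ba (H2bu2), on chromosome 11 with Hist3h2a, had the widest spread of any core gene. It read -0.55 and -0.18 in untransfected cells, -3.40 and -4.18 in IgM cells, 1.21 and 0.93 in clone 18, and -0.10 and 0.88 in clone 41. The IgM arrays were the low ones, and the clones lay just above the untransfected arrays. The pooled difference of 2.81 ± 0.28 (SE) was made up of 4.86 and 4.18 against IgM cells but only 1.44 and 0.75 against untransfected cells. Those last differences did not pass the call. The pooled call of Hist3h2ba was lost in the fits with 2 groups in place of 4 lines. The neighbouring Hist3h2a did not share the low IgM level.

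Hist1h2bp (H2bc22) was the only histone gene called lower. It read -4.41 and -3.94 in untransfected cells, -2.17 and -3.27 in IgM cells, -4.67 and -5.43 in clone 18, and -4.24 and -4.72 in clone 41. IgM replicate 1 was the highest array, the groups overlapped, and only 1 array of each clone was well above background. The difference of -1.32 ± 0.31 (SE) is therefore measured on part of the IgE arrays, and it did not pass without the filter on dim probes, with normexp background correction or in the authors' deposited table. It also fell short without any 1 of the arrays untransfected replicate 2, IgM replicate 1, clone 18 replicates 1 and 2, and clone 41 replicates 1 and 2. Hist1h2bc, the lowest measured H2B gene, read 0.17 and 1.52 in untransfected cells, 1.99 and 1.62 in IgM cells, 0.18 and 0.94 in clone 18, and -0.34 and 1.39 in clone 41, a difference of -0.79 ± 0.47 (SE). Arrays of all lines overlapped there except those of IgM cells, which were highest.

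Among H3 genes, 7 of 8 could be measured, 2 higher and 5 lower, with a median of -0.07. Hist1h3a (H3c1) read -0.56 and -0.60 in untransfected cells, -0.20 and -0.09 in IgM cells, 0.60 and 0.67 in clone 18, and 0.32 and 0.29 in clone 41. The 4 lines did not overlap one another, in the order untransfected, IgM, clone 41, clone 18. The difference of 0.83 ± 0.10 (SE) was under 2-fold. Clone 18 against untransfected cells, at 1.22, passed the call. The pseudogene Hist2h3c2-ps was the lowest of the class, at -0.20 ± 0.20.

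All 5 measured H4 genes were higher in the pooled comparison, beside 54.0% of all measured genes. Their median was 0.43, with a range from 0.14 for Hist1h4i to 0.78 for Hist1h4j. None reached 2-fold. Against IgM cells Hist1h4i differed by -0.03 in clone 18 and -0.16 in clone 41, while the others were higher in both clones. Hist4h4, saturated on 3 arrays and so not among the 5, differed by -0.04. The pooled direction held for all 5 under quantile normalization, normexp correction and the authors' deposited table. Without scaling it held for 3 of 5, with a median of 0.10. Hist1h4j (H4c11) read 3.09 and 3.33 in untransfected cells, 3.36 and 3.58 in IgM cells, 4.30 and 4.10 in clone 18, and 4.16 and 3.94 in clone 41. The IgE arrays lay above the control arrays, and untransfected cells and IgM cells lay close together. The Hist1h4j probe was 95.8% identical to a Hist1h4k probe that differed by 0.18, so it can also bind other H4 transcripts. The probe of Hist1h4h showed the same order of groups at a low level, with a difference of 0.64 ± 0.16 (SE).

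**Figure D3:**
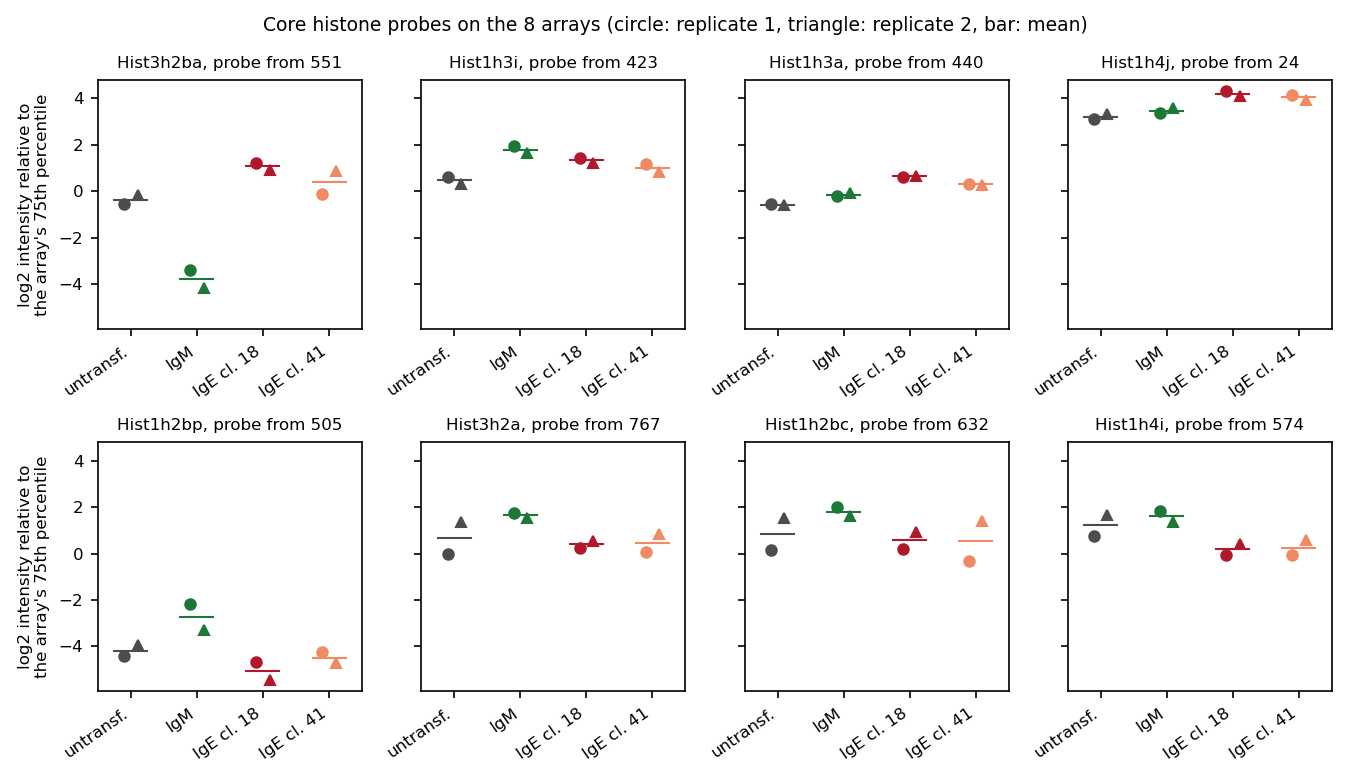
Log2 intensity relative to the 75th percentile of the array (vertical axis) for 8 core histone probes by line (horizontal axis), 1 point per array and the line mean as a bar; the number in each title is the base of the transcript record at which the probe starts. Hist3h2ba is low in IgM cells, Hist1h3i is low in untransfected cells, Hist1h3a and Hist1h4j are higher on all IgE arrays, and the late Hist1h4i probe is lower on all of them.

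Probes of the same gene did not always move together. Hist1h4i has 3 measured probes. The probes that start at bases 23 and 483 differed by 0.14 ± 0.14 and -0.16 ± 0.18 (SE), both with overlapping groups. The probe that starts at base 574 read 0.75 and 1.67 in untransfected cells, 1.84 and 1.35 in IgM cells, -0.07 and 0.43 in clone 18, and -0.08 and 0.56 in clone 41. All its IgE arrays lay below all control arrays, and its difference of -1.19 ± 0.28 (SE) passed the call when every probe was fitted as its own feature, against 5.39% of probes called lower in that fit. An H4 mRNA of S phase is shorter than this position. Hist1h4k and Hist2h4 each had 1 saturated probe and 1 that was not, and the latter read 0.18 ± 0.15 and -0.53 ± 0.37. The late probe of Hist4h4 was not kept.

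Probes sorted by place in the transcript differed in the direction they leaned. Of 15 measured probes that lie before the stem-loop, 11 were higher and 4 lower in the IgE clones, with a median of 0.17. Of 12 that reach well past the stem-loop, or start at base 480 or later in a core and 700 or later in a linker transcript, 3 were higher and 9 lower, with a median of -0.32 and a range from -1.19 to 2.81. The 5 that end in the stem-loop stretch were split 3 to 2, with a median of 0.03. Without scaling the counts were 4 higher and 11 lower before the stem-loop and 2 higher and 10 lower past it. A single array moved with this pattern: untransfected replicate 1 was the lowest of the 4 control arrays for 10 of the 12 late probes, by a median of -0.87 against the other control arrays, and for 11 of the 15 early ones, by -0.40. Without that array the median of the late probes was -0.63 and that of the early ones 0.07. The late probes were also highest on IgM replicate 1 in 6 of 12 cases, by a median of 0.95 over the other arrays. The part of either array in the pattern was not tested beyond these values. The label kit was a low-input amplification kit, and the labels do not name its primer.

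**Figure D4:**
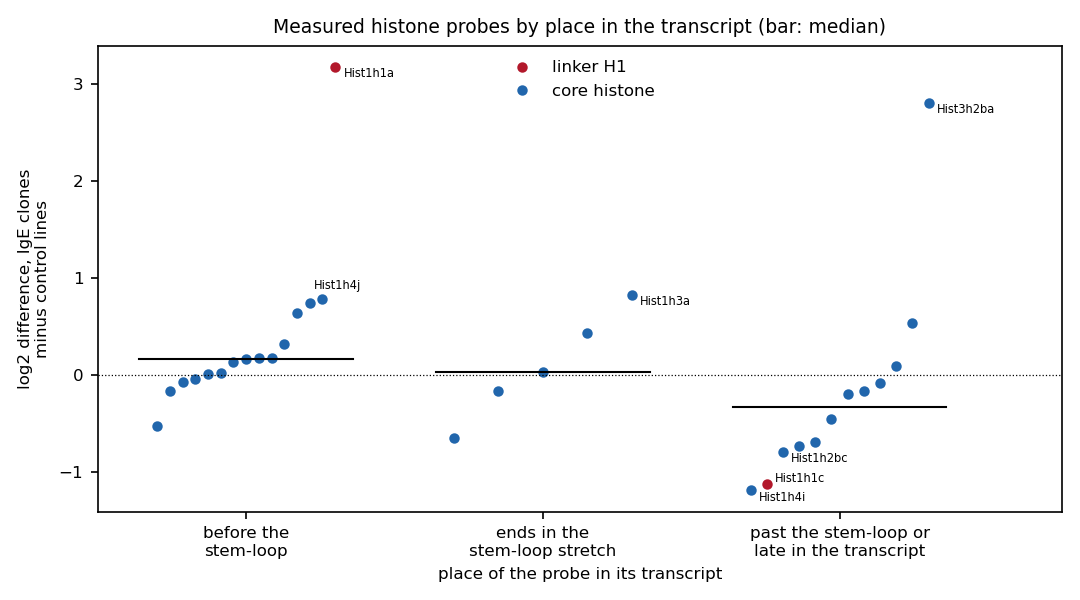
Log2 difference between IgE clones and control lines (vertical axis) for the 32 measured histone probes, grouped by place in the transcript (horizontal axis), with the group median as a bar and linker genes in red. Early probes have a median of 0.17 and late probes of -0.32, while Hist3h2ba at 2.81 stands apart among the late probes.

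Core histone genes were mostly higher in the IgM line than in the untransfected line. Of the 26 measured core genes, 24 were higher in IgM than in untransfected cells, with a median log2 difference of 0.54, whereas 48.6% of all measured genes were higher and their median was -0.01. The exceptions were Hist3h2ba, at -3.42, and Hist2h2be, at -0.04. Taken array by array, 25 and 19 genes were higher on IgM replicate 1 than on untransfected replicates 1 and 2, and 24 and 21 were higher on IgM replicate 2. The medians of these 4 pairs of arrays were 0.45, 0.37, 0.62 and 0.35. Over 17358 genes, the log2 difference between the 2 untransfected arrays had an SD of 0.65. In the other lines this SD was 0.32 to 0.37. The fit shares 1 spread over all lines, so errors of comparisons with untransfected cells may be too small. The differences of single genes were mostly small. Of 47 histone genes, 2 passed the call, against 2.03% of all genes. These were Hist3h2ba, lower, and Hist1h3i (H3c11), higher by 1.31 ± 0.22 (SE). The call of Hist1h3i passed without untransfected replicate 1, but not without any other single array, and neither gene passed in the authors' deposited table.

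Hist1h3i read 0.63 and 0.33 in untransfected cells, 1.95 and 1.63 in IgM cells, 1.44 and 1.22 in clone 18, and 1.19 and 0.84 in clone 41. The untransfected line was low and the clones lay between both controls, so the pooled difference was 0.03 ± 0.15. The same layout held for the core genes as a set, where the clones were compared with each control separately. Against untransfected cells 22 of 26 were higher in clone 18 and 21 in clone 41, with medians of 0.49 and 0.39. Against IgM cells only 8 of 26 were higher in either clone, with medians of -0.16 and -0.31. These comparisons share their control arrays, so they are not separate evidence. Relative to each gene's own mean, the core genes had medians of -0.41 and -0.21 on the untransfected arrays, 0.11 and 0.38 on the IgM arrays, 0.24 and 0.05 on those of clone 18, and 0.03 and -0.04 on those of clone 41. Over all 16350 measured genes these medians ran from -0.04 to 0.03.

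**Figure D5:**
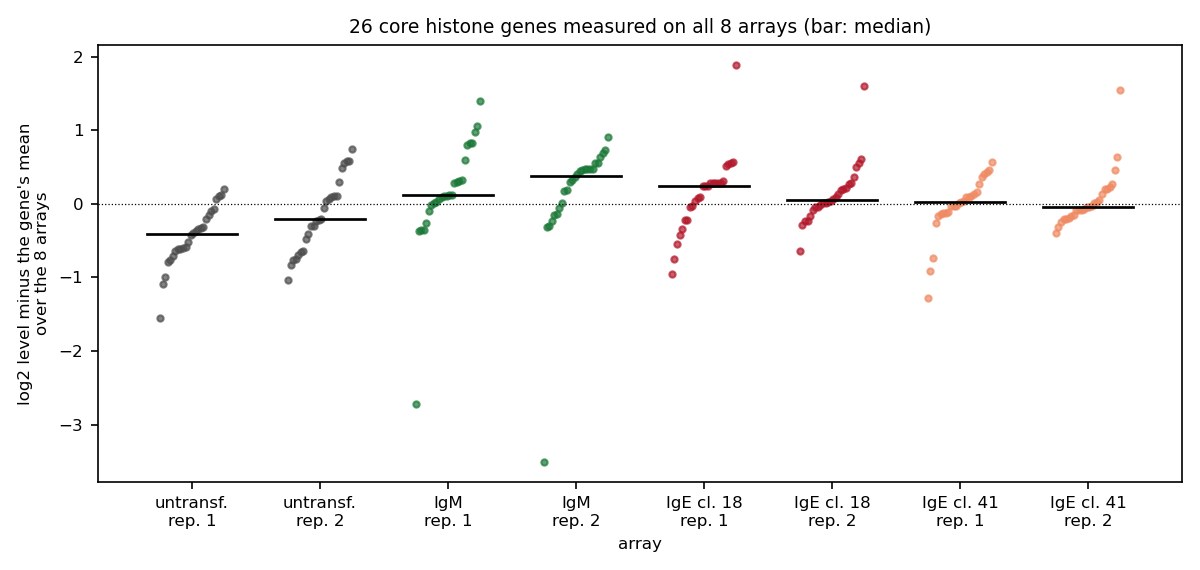
Log2 level of each of the 26 measured core histone genes minus its own mean over the 8 arrays (vertical axis), by array (horizontal axis), with the median as a bar. The untransfected arrays have the lowest medians, -0.41 and -0.21, and the clone arrays lie between them and IgM replicate 2 at 0.38; the 2 points far below on the IgM arrays are Hist3h2ba.

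Calls in single pairs of lines followed the same layout. The gene set was chosen on these signals, so these calls are a description. Errors against untransfected cells may also be too small, because the arrays of that line differed most from each other. Clone 18 had 4 histone genes called against untransfected cells, all higher (7.69% of all genes were called): Hist1h1a, Hist1h1b, Hist2h2ab and Hist1h3a. Clone 41 had 2, Hist1h1a and Hist1h1b (5.6% of all genes). Against IgM cells, clone 18 had 4 called (9.14% of all genes), with Hist1h1a and Hist3h2ba higher and Hist1h2bg, at -1.33, and Hist1h2bp, at -2.33, lower. Clone 41 had Hist1h1a and Hist3h2ba called against IgM cells (7.39% of all genes). Hist1h1a was the only histone gene called the same way in all 4 pairs, against 2.93% of all genes. Without clone 41 replicate 1 it passed in the pooled comparison but not in all 4 pairs. Between the clones no histone gene was called (0.355% of all genes), and 20 of the 26 measured core genes were lower in clone 41, with a median of -0.14.

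The machinery that makes histones was read against the 8.99% of all genes called in the pooled comparison, and nothing is read from the counts of such short lists. Of 25 tested genes of histone transcription and mRNA processing, 1 passed. This was Cstf2t, at -1.30 ± 0.16 (SE, limma adjusted p = 0.00244) and below all control arrays in both clones. It encodes a paralogue of the cleavage stimulation factor subunit Cstf2. Slbp, which binds the stem-loop, differed by 0.18 ± 0.18 (adjusted p = 0.544). Npat, the coactivator of histone gene transcription, was too dim to be tested. Of 23 chaperone genes 1 passed. This was Ubn2, a subunit of the HIRA complex that deposits H3.3, higher by 1.09 ± 0.14 (limma adjusted p = 0.0037), and it fell short of 2-fold without untransfected replicate 1, at 0.97, and without scaling, at 0.76.

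Of 49 tested genes of DNA replication, 1 passed the call, against 8.99% of all genes. This was Orc2, a subunit of the origin recognition complex, higher by 1.72 ± 0.22 (SE, limma adjusted p = 0.00344). The median of the list was 0.00, beside 0.04 for all genes. Pcna, the sliding clamp of DNA polymerase, differed by 0.14 ± 0.15 (limma adjusted p = 0.569), and Mki67, a proliferation marker saturated on 4 arrays, by 0.27 ± 0.13. Of the 12 replication-independent histone genes, H1f0 and H1fx were the only calls (8.99% of all genes), and both passed the filter through the IgE lines alone. H2afx differed by 0.13 ± 0.28, H3f3b by 0.05 ± 0.12, and H2afz was saturated on all 8 arrays.

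Genes of other names lying among the histone genes were called at about the share of all genes, 8.99%. On chromosome 13, 36 histone genes span mm9 positions 21814057 to 24026527, and 23 tested genes of other names lie within. Only the name sets these apart. A probe at chr13:23673749-23673808 had means of 6.89 in control and 7.11 in IgE lines. Near it, at chr13:23673515-23673574, the saturated Hist1h4d probe had 6.79 and 7.05. Some of the 23 may thus read histone transcripts. Of the 23, 1 passed higher and 1 lower, and the median was 0.21 beside 0.04 for all genes. An unadjusted limma p under 0.05 was found for 12 of them. Nothing is read from that count, since the share of all genes is not given here. The one higher was a probe for an unnamed transcript at chr13:23522705-23522764, at 1.10 ± 0.12 (SE, limma adjusted p = 0.00151). The one lower was Vmn1r197, a vomeronasal receptor gene, at -1.35 ± 0.18 (limma adjusted p = 0.00388), which was low in clone 18, at -7.03 and -6.83, and not in clone 41, at -3.91 and -3.58. No other tested gene lay between the 9 histone genes on chromosome 3 or the 3 on chromosome 11.

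The lines carried B cell markers throughout. All 8 B cell markers were well above background on all 8 arrays. Among markers of other cells, 4 of 6 T cell, 4 of 6 myeloid and 3 of 5 germ cell genes passed the filter on dim probes. Myeloid Cd68 was higher by 1.68 in the IgE clones (limma adjusted p = 0.000906) and dim Ly6g differed by -1.94 (limma adjusted p = 0.00303). The call of Ly6g was lost with normexp correction, at -0.18, and in the authors' deposited table, at -0.49. T cell Cd3g was high in IgM cells alone, at -1.39 and -0.62. The summed linear level of the T cell list was 3.84 to 4.08 in untransfected cells, 4.16 to 4.57 in IgM cells, 4.25 to 5.36 in clone 18 and 4.50 to 4.90 in clone 41. That of the myeloid list was 38.3 to 47.4, 50.9 to 56.4, 47.4 to 68.9 and 50.3 to 62.4 in the same order. That of the germ cell list was 0.437 to 0.645, 0.386 to 0.483, 0.335 to 0.391 and 0.324 to 0.329. The 3 tested germ cell genes differed by -0.89 to 0.21 between IgE and control lines, with a median of 0.06. Cd3d, Cd8a, Lyz2, Cd14, Dazl and Sycp3 did not pass the filter. The part of other cell types in the histone values was not tested.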

How the data were processed

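The scanner files deposited by the authors hold, per the file headers, Cy3 intensity from Agilent array design 028005, read with Feature Extraction 10.7.3.1 and placed on mouse build mm9. The processed intensity was background-subtracted by that software and not scaled between arrays. A value table deposited by the authors, in log2 units, was used as an alternative. It ranks the probes as the median pixel intensity does (Spearman 1 on each array), and its normalization is not given in the sources used here. All 8 arrays were on 1 slide with 1 scan date, each line in a slide column of its own, so column and line cannot be told apart.

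From log2 processed intensity the 75th percentile of each array was subtracted. Outlier spots were left out, repeated spots averaged, and probes kept if some line had them well above background on 2 of 2 arrays (29140 of 55681). The kept probe with the highest mean stood for a gene, giving 19973 genes, 21 of them with a missing value. A limma 3.58.1 fit (R 4.3.3, 4 line means, residual df 4, prior df 2.66) was adjusted by Benjamini-Hochberg over all genes. A call is an adjusted p under 0.05 and at least 2-fold. An "at least" fold sets the bright mean against the mean of, per control array, the lowest signal well above background or, where higher, that of the probe itself. Python 3.11.15 and pandas 2.3.3 were used for the sequences and counts.

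The histone genes, the gene lists and the tests were chosen with earlier results of these data known. Named were all linker genes and, in each core class, the called genes and the highest and lowest measured difference, with the called genes of each list and of the chromosome 13 span and a further set that included Slbp and Pcna. Hist1h3a, Hist1h4h, Hist1h2aa, Hist1h2bg and Hist2h2be were named after their values were seen. Not every result of this rule is reported here. Only 8 arrays limit the precision. Replicate numbers did not pair the lines (see the closing section). Alternatives were quantile scaling, normexp correction with an offset of 50, other filters, the authors' table, other gene summaries and fits, and each array left out in turn; alternatives without scaling and with measured genes only were chosen after seeing the data.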

Additional observations from a re-analysis of the deposited data

Results flagged for a closer look

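Hist3h2ba and Hist1h3i stood out because the clones' difference from untransfected cells was not their difference from IgM cells, by the test of IgM against untransfected cells. The gap was -3.42 for Hist3h2ba. Its clones were 1.44 (clone 18) and 0.75 (clone 41) above untransfected cells and 4.86 and 4.18 above IgM cells. The gap was 1.31 for Hist1h3i, whose clones were 0.84 and 0.53 above untransfected cells and differed by -0.47 and -0.77 from IgM cells. Both genes belong to the set chosen on these signals, so these values are a description.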

How the results depend on the processing

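Hist1h1a kept its direction and its pooled call under every alternative run, from 2.85 without scaling to 3.42 without untransfected replicate 1. Hist1h1a belongs to the set chosen on these signals, so its calls are a description and no support. The number of histone genes called, 3, became 8 on adjusted p alone, 1 in the fits with 2 groups (with or without the line as a random block) and 5 without scaling, and ran from 2 to 5 with 1 array left out. The linker median of 0.36 over the 5 tested genes is the value of Hist1h1e, which was saturated on all 8 arrays. Nothing is read from it. This median was 0.01 with quantile scaling, -0.12 with no filter, 0.52 with the strictest filter, 0.00 in the authors' table and 0.03 without scaling. With 1 array left out it ran from 0.31 to 0.41. Over the 2 measured linker genes, Hist1h1a and Hist1h1c, which moved in opposite directions, the median was 1.03. The core median of 0.17, which includes saturated genes, was -0.01 with quantile scaling, 0.00 in the authors' table, 0.03 over measured genes and -0.16 without scaling, and ran from 0.17 to 0.26 with 1 array left out. The number of all genes called, 1795, was 1034 with normexp, 1085 with the strictest filter, 1125 in the authors' table and 3562 on adjusted p alone, and ran from 1391 to 2169 with 1 array left out. Histone genes called in all 4 pairs ran from 0 (without clone 41 replicate 1, where Hist1h1a fell short) to 2 (without untransfected replicate 1, which added Hist1h1c). Histone genes called between IgM and untransfected cells were 1 with no filter and 0 in the authors' table, and ran from 1 to 4. Between the clones none was called under any alternative. Genes that did not pass changed sign: H3f3b was -0.22 with quantile scaling, -0.10 in the authors' table, -0.01 with the probe median and -0.28 without scaling, and ran from -0.01 (without IgM replicate 2) to 0.11 with 1 array left out. Mki67 was -0.05, -0.14 and -0.06 with quantile scaling, in the authors' table and without scaling. Without scaling Pcna was -0.19, H2afx -0.20 and Slbp -0.15, and H2afx ran from -0.20 (without untransfected replicate 2) to 0.45 with 1 array left out. The cause of these changes was not tested.

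With the replicate number as a block, 1843 genes and 3 histone genes were called. The replicate differences of 2 lines correlated at -0.06 to 0.35 over 17358 genes. Clone 18 stood at -0.06 against untransfected and 0 against IgM cells, so the numbers were not taken to pair the samples, although the other 4 pairs of lines stood at 0.15 to 0.35.

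Limits are set by 2 arrays a line, by saturation, which hides any difference in 13 histone genes, by probes of near-identical genes, and by probes that lie late in the transcript. Levels near background, such as those of Hist1h2bp and Hist1h1t, were highest on IgM replicate 1. Of 13 unsaturated histone probes with a mean level under -2.5, 7 had their highest value on that array, by a median of 1.02 over the other arrays in the 13.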
